A study of Mus musculus with 48 samples.

Results

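The genes described are 10 genes of transforming growth factor beta (TGF-beta) and bone morphogenetic protein (BMP) signalling, found by symbol among the 29221 genes counted in mouse liver. They are the ligand genes Tgfb1, Tgfb2, Tgfb3, Bmp2 and Bmp6, the receptor genes Tgfbr1 and Tgfbr2, the SMAD genes Smad7 and Smad9, and the BMP target gene Id1. RNA from whole liver of 48 mice was sequenced, 1 library per mouse, in 10 groups. All mice, controls included, carried floxed alleles of Pparg, the gene of the nuclear receptor PPARg. At week 16 of the diet they received AAV8-TBG-Cre, a virus in which the TBG promoter directs Cre recombinase to hepatocytes, or AAV8-TBG-null, the same vector without Cre. The Cre groups are called labelled knockouts and the null groups controls. Other liver cells are not a target of that promoter, so whole-liver RNA holds their transcripts as well. Females were fed a low-fat diet (LF, labelled as healthy liver) or a high-fat diet (HF, labelled as steatosis) for 34 weeks. HF-fed males formed the same pair of groups, without an LF arm. The HFCF groups of both sexes changed after 18 weeks of HF to a richer diet with added cholesterol and fructose for the last 16 weeks (labelled as steatohepatitis). Each male group held 6 mice and each female group 4.

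TGF-beta ligands bind the type II receptor encoded by Tgfbr2, which recruits and phosphorylates the type I receptor encoded by Tgfbr1, and this phosphorylates SMAD2 and SMAD3. BMP ligands act through other receptors on SMAD1, SMAD5 and SMAD9, and Id1 and the inhibitory SMAD gene Smad7 are textbook transcriptional targets of these cascades. In liver, TGF-beta is best known for activating hepatic stellate cells to make collagen. BMP2 and BMP6, made largely by sinusoidal endothelium, are known for inducing hepcidin, the iron hormone encoded by Hamp, in hepatocytes.

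Sequences before a RefSeq transcription start were available for 6 of the 10 genes, in 7 windows of 250 bases on GRCm38.p6. The Bmp6 window and 1 of the Tgfbr1 windows lie inside the gene coordinates given below, because the RefSeq start used there is further along the gene. The windows of Smad9, Tgfbr2 and Bmp6 are shown because these genes gave the widest diet range, the diet-dependent knockout difference and the endothelial ligand of the results that follow. Capitals mark a match on either strand to CAGAC, the SMAD box, or GGCGCC, a GC-rich motif of BMP-responsive elements. The windows are Smad9 at chr3:54755332-54755581 (plus strand), Tgfbr2 at chr9:116175364-116175613 (minus strand) and Bmp6 at chr13:38345466-38345715 (plus strand), each printed 5′ to 3′ along its gene.
Smad9: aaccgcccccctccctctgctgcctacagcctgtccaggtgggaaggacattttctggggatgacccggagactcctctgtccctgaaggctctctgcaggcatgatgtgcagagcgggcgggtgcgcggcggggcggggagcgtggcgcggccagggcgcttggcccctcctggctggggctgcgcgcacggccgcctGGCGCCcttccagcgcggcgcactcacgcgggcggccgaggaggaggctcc
Tgfbr2: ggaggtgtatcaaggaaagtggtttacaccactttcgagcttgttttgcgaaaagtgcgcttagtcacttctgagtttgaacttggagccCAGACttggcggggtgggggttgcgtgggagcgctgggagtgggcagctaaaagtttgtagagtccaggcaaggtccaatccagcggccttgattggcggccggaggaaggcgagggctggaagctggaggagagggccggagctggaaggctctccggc
Bmp6: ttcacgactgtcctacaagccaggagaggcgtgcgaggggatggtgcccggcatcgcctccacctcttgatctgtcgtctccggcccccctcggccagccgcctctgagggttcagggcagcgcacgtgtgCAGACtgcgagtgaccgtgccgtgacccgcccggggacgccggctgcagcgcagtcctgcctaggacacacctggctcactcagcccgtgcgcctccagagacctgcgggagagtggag

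The Smad9 window held 1 match to GGCGCC, which 9.59% of all 32851 windows of that length held, and no match to CAGAC. The Tgfbr2 and Bmp6 windows each held 1 match to CAGAC, which 42.2% of all windows held. A perfect DR1 element, the repeat of AGGTCA with 1 base between that PPAR receptors bind, was also searched on both strands. It matched none of the 7 windows and 0.0335% of all windows. None of the 3 motifs holds another, and a match describes the sequence only.

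On GRCm38 the ligand genes are Tgfb1 (ENSMUSG00000002603, chromosome 7, 25687002 to 25705077, plus strand), Tgfb2 (ENSMUSG00000039239, chromosome 1, 186622792 to 186705989, minus), Tgfb3 (ENSMUSG00000021253, chromosome 12, 86056745 to 86079041, minus), Bmp2 (ENSMUSG00000027358, chromosome 2, 133552159 to 133562885, plus) and Bmp6 (ENSMUSG00000039004, chromosome 13, 38345107 to 38500302, plus). The receptor genes are Tgfbr1 (ENSMUSG00000007613, chromosome 4, 47353222 to 47414931, plus) and Tgfbr2 (ENSMUSG00000032440, chromosome 9, 116084293 to 116175360, minus). Smad7 (ENSMUSG00000025880) lies on chromosome 18, 75367529 to 75395935, Smad9 (ENSMUSG00000027796) on chromosome 3, 54755582 to 54801257, and Id1 (ENSMUSG00000042745) on chromosome 2, 152736251 to 152737410, all on the plus strand. All 10 are protein-coding genes with the same coordinates in GENCODE M21. Of the 3900 exonic bases of Bmp6, 224 overlap exons of Txndc5 on the other strand, and because libraries were not strand specific its counts are uncertain there. Txndc5 stood at 157 to 190 CPM in every group mean. Tgfb3 shares 163 of its 3383 exonic bases with Gm37804 and 257 with Gm48008, and Tgfb2 shares 124 of 5791 with Gm29491.

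Libraries held 15338239 to 22072884 reads on genes. Levels are given as CPM (read counts per 1e+06 reads of a library, with library sizes scaled by the trimmed mean of M values over all 48 libraries), as mean ± SD. Log2 differences carry their standard error (SE) from edgeR's quasi-likelihood F test on the pair of groups compared, and adjusted p-values are Benjamini-Hochberg values of that test over all genes tested in the comparison. A gene was called where that value was under 0.05. Pparg itself was not lower in any group labelled knockout. It measured 56.3 ± 6.18 against 32.3 ± 5.47 CPM in HFCF males (n = 6 each, adjusted p = 0.000805, higher) and 45.8 ± 9.37 against 23.7 ± 1.46 CPM in HFCF females (n = 4 each, adjusted p = 0.0422, higher), and did not pass in the other 3 comparisons. The labels do not say which exons are floxed, and gene counts include reads from exons outside them.

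Some libraries stood apart by marker lists of liver cell types. HF control female replicate 1 had the highest summed level of its group for stellate (609 CPM, group median 318) and cholangiocyte markers (276 CPM, group median 64.1). HFCF control male replicate 1 was the lowest of its group for macrophage (115 CPM, median 278) and cholangiocyte markers (158 CPM, median 509). HFCF labelled-knockout female replicate 1 had the highest hepatocyte sum of its group at 112000 CPM. HF labelled-knockout female replicate 3 had 73.1 CPM of neutrophil markers, where its group's median was 1.83 CPM. HF labelled-knockout male replicates 3, 4 and 5 had 806, 614 and 817 CPM of red blood cell markers, against 164 to 185 CPM in replicates 1, 2 and 6. Results on that group are therefore also given without these 3 libraries, an alternative chosen after seeing the data. The 6 hepatocyte markers summed to between 39300 and 123000 CPM in all libraries, and both pancreas genes found summed to at most 1.11 CPM. No marker of the hepatocyte, endothelial, stellate, Kupffer, macrophage or cholangiocyte lists was at 0 throughout a group. The macrophage list leaves out the Kupffer cell markers, which form their own list.

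Per kilobase of transcript, the mean over all libraries ordered the genes as Id1 (7.50 CPM per kb), Tgfbr1 (7.33), Tgfbr2 (6.94), Bmp2 (4.75), Tgfb1 (4.43), Smad7 (4.15), Bmp6 (1.70), Smad9 (0.882), Tgfb3 (0.755) and Tgfb2 (0.438). By the median over libraries the first 3 were Tgfbr2 (7.32 CPM per kb), Tgfbr1 (6.62) and Id1 (6.36). Among the ligands, Bmp2 and Tgfb1 were thus the most abundant and Tgfb2 the least. Relative to their level, Smad9 (0 to 17.8 CPM) and Tgfb2 (0 to 8.52 CPM) varied most over libraries. Each of these genes had a single library without a read. For Smad9 this was HF labelled-knockout male replicate 5, where 0 reads allow up to 0.172 CPM (3 reads). For Tgfb2 it was HF labelled-knockout female replicate 4, with a limit of 0.21 CPM. Tgfbr1 varied least by the ratio of highest to lowest, from 28.8 to 89.2 CPM. In the plot of all libraries, the 4 HFCF groups hold the 4 highest group means of Tgfb1, Tgfb2, Tgfb3 and Tgfbr1. Id1, Smad7, Smad9 and Bmp6 have their highest group mean in LF control females, and Bmp2 in LF labelled knockouts.

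**Figure D1:**
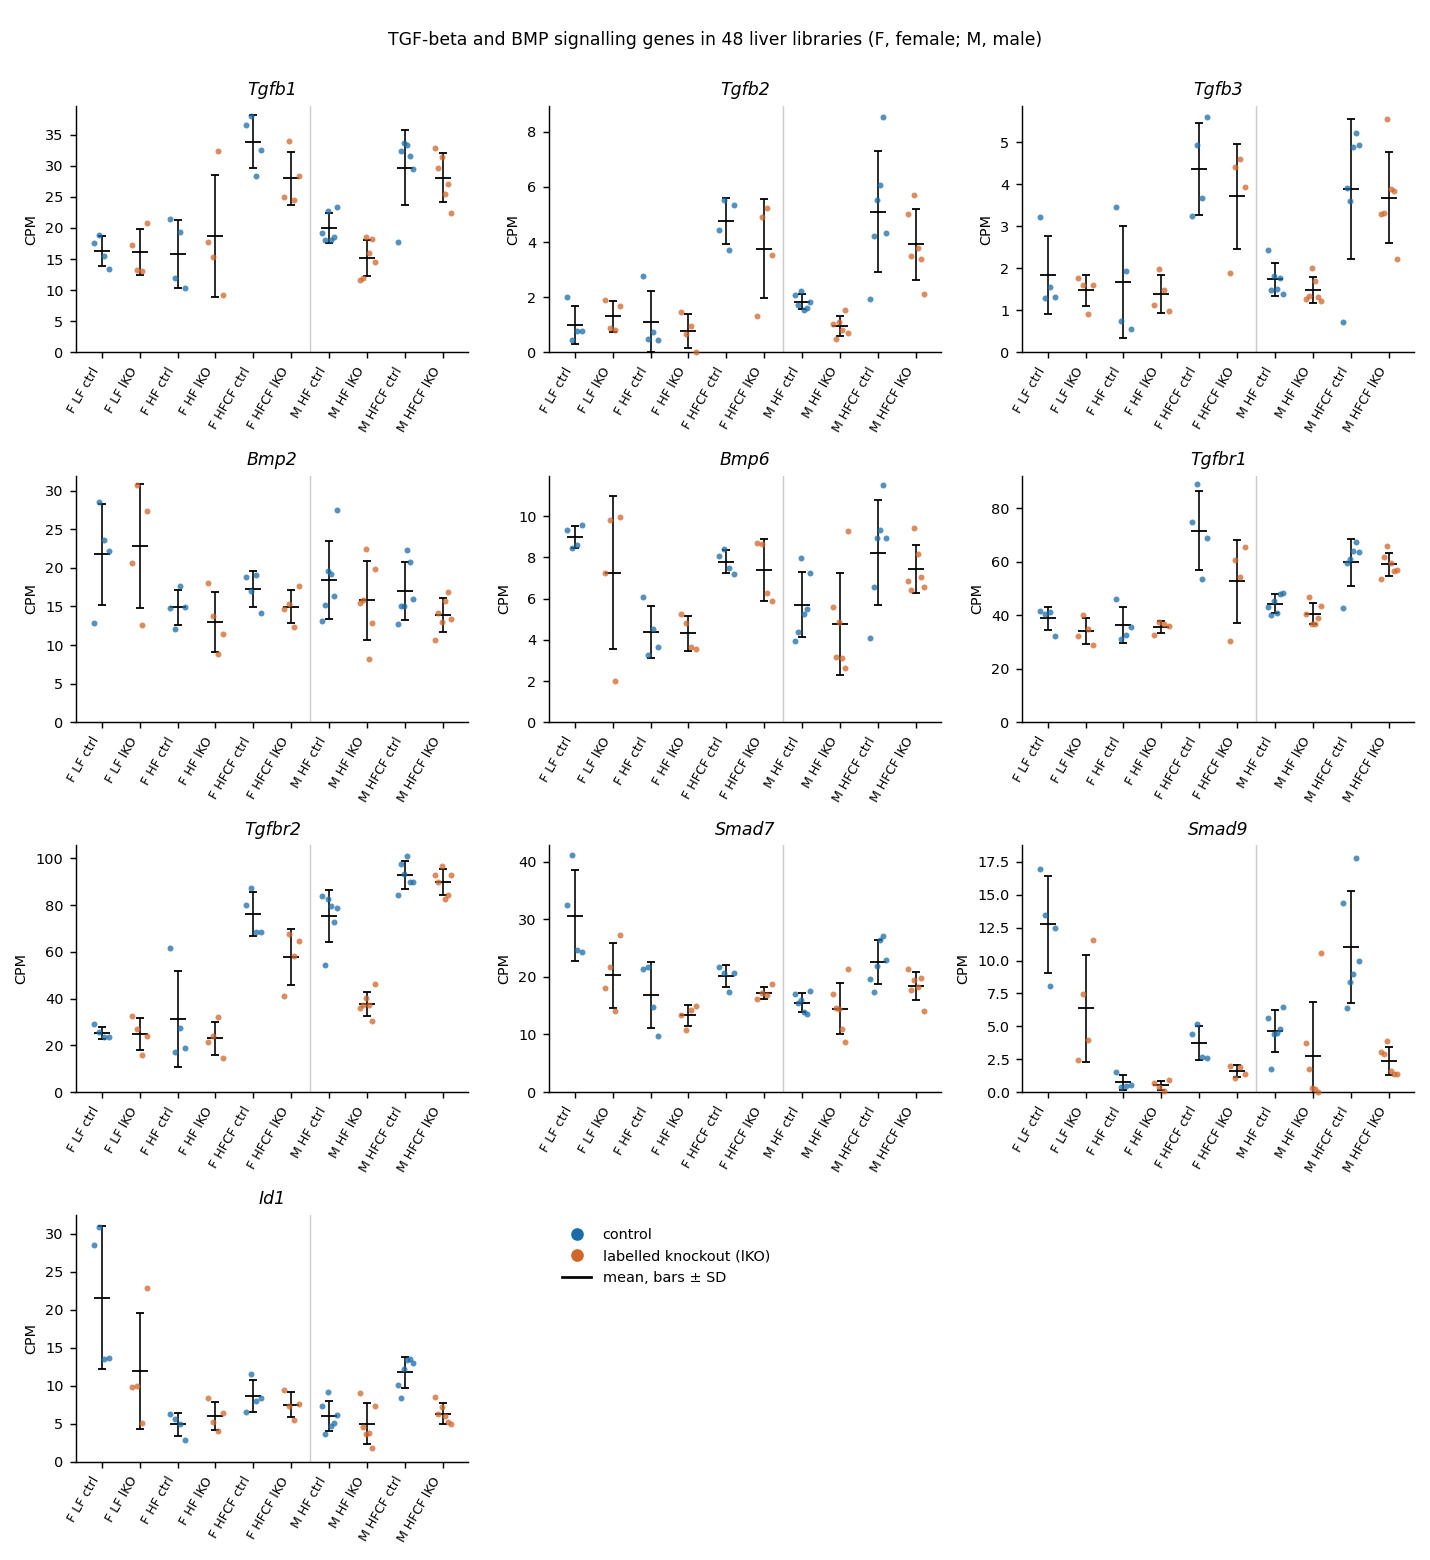
CPM of each of the 10 genes (vertical axis, linear from 0) in each library, by group (horizontal axis: F, female; M, male; ctrl, control; lKO, labelled knockout), with group mean and SD bars. Tgfbr2 shows HF labelled-knockout males between 30.2 and 46.1 CPM under HF control males between 54.3 and 83.7 CPM, and Smad9 shows HF females at or under 1.56 CPM.

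HFCF-fed livers were set against HF-fed livers to ask how these genes stand in livers labelled steatohepatitis against livers labelled steatosis. In control males, 8 of the 10 genes rose and none fell, where 22.3% of the 14475 genes tested were called (13% higher). In control females 7 rose and none fell, where 30.8% of 14701 genes were called (16.9% higher). In labelled-knockout males 6 rose, with 41.7% of 14314 genes called (21.6% higher), and in labelled-knockout females 4 rose, with 14.5% of 14650 genes called (8.44% higher). Every HFCF library lay above every HF library for 1 of the 10 genes in control males (1.72% of all genes), 7 in control females (14.8%), 5 in labelled-knockout males (10%) and 4 in labelled-knockout females (10.2%). The median log2 difference of the 10 genes was 0.56, 1.05, 0.60 and 0.68 in these comparisons, and the medians over all genes tested lay between -0.02 and 0.01. Tgfb2 and Tgfbr2 were called in all 4 comparisons, and Bmp2 in none.

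Of the 3 TGF-beta ligand genes, Tgfb1 encodes the main TGF-beta isoform of inflamed and fibrotic liver. It measured 18 to 23.4 CPM (median 18.8) in HF control males and 17.8 to 33.6 CPM (median 31.9) in HFCF control males. HFCF replicate 1 alone lay under the highest HF library there, and the other 5 HFCF libraries lay above it. The log2 difference was 0.58 (SE 0.13, adjusted p = 0.00722). In labelled-knockout males the groups were apart, at 11.7 to 18.5 CPM (median 15.3) on HF and 22.4 to 32.8 CPM (median 28.3) on HFCF, a log2 difference of 0.89 (SE 0.12, adjusted p = 5.31e-05). In control females Tgfb1 was 21.5, 12, 19.4 and 10.4 CPM on HF and 36.5, 38, 28.4 and 32.6 CPM on HFCF. All 4 HFCF libraries were higher than all 4 HF libraries, with a log2 difference of 1.11 (SE 0.23, adjusted p = 0.00903). In labelled-knockout females HF replicate 3, the library with the neutrophil markers, stood at 32.4 CPM, within the HFCF range of 24.5 to 33.9 CPM. There Tgfb1 was not called (log2 difference 0.57, SE 0.31, adjusted p = 0.255), and without that library the largest of the values with a library left out was 0.99, the only one called (adjusted p = 0.0137).

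Tgfb2, a low-abundance isoform, had larger log2 differences than Tgfb1 in the 4 comparisons. In control females it measured 2.77, 0.498, 0.752 and 0.434 CPM on HF and 4.44, 5.54, 3.72 and 5.34 CPM on HFCF. The groups did not overlap, and the high HF value was that of replicate 1. The log2 difference was 2.08 (SE 0.51, adjusted p = 0.0166), and 3.09 without HF replicate 1 (adjusted p = 8.83e-05). It lost its call without HF replicate 3. In labelled-knockout males Tgfb2 went from 0.473 to 1.55 CPM (median 0.919) on HF to 2.11 to 5.72 CPM (median 3.65) on HFCF, with no overlap and a log2 difference of 2.03 (SE 0.28, adjusted p = 4.5e-05). In control males the difference was 1.49 (SE 0.27, adjusted p = 0.00224), with HFCF replicate 1 at 1.95 CPM inside the HF range of 1.55 to 2.23 CPM. In labelled-knockout females it was 2.25 (SE 0.67, adjusted p = 0.0485) and the call held in 1 of 8 fits with a library left out, that without HFCF replicate 1 (2.52, adjusted p = 0.0129).

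Tgfb3, the third isoform, rose in control males (3.89 ± 1.67 against 1.74 ± 0.391 CPM, log2 difference 1.18, SE 0.33, adjusted p = 0.0192) and in labelled-knockout males (3.69 ± 1.09 against 1.48 ± 0.303 CPM, 1.32, SE 0.21, adjusted p = 0.000185). The lowest of all 24 male libraries was HFCF control replicate 1 at 0.733 CPM, and only the labelled-knockout groups did not overlap. In females it was called in labelled knockouts (1.42, SE 0.34, adjusted p = 0.0223, held in 3 of 8 fits with a library left out). In control females the log2 difference was 1.38 (adjusted p = 0.058), and it was called by the DESeq2 Wald test, without the low-count filter and with all female groups in 1 fit. That difference was 2.03 without HF control replicate 1, which stood at 3.47 CPM against 0.558 to 1.94 CPM in the rest of its group (adjusted p = 0.00282).

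Of the BMP ligand genes, Bmp2 measured between 8.17 and 30.7 CPM over all libraries. Its log2 difference of HFCF against HF was -0.11 (SE 0.17) in control males, -0.18 (SE 0.19) in labelled-knockout males, 0.23 (SE 0.14) in control females and 0.21 (SE 0.20) in labelled-knockout females, with adjusted p-values of 0.696, 0.477, 0.224 and 0.524. Bmp6 rose in control females, from 6.07, 3.24, 4.51 and 3.66 CPM on HF to 8.08, 8.41, 7.48 and 7.21 CPM on HFCF. Those groups did not overlap (log2 difference 0.85, SE 0.20, adjusted p = 0.0149), and the call held in all 8 fits with a library left out. It also rose in labelled-knockout females (0.77, SE 0.20, adjusted p = 0.0321, held in 3 of 8 such fits and not with all female groups in 1 fit) and labelled-knockout males (0.64, SE 0.25, adjusted p = 0.0468, held in 2 of 12, and 0.30 with adjusted p = 0.386 without HF replicates 3, 4 and 5). Without these 3 libraries 5 of the 10 genes were called there, Bmp6 alone losing its call. In control males it was not called (0.54, SE 0.23, adjusted p = 0.0968) except without HFCF replicate 1 (0.68, adjusted p = 0.00765). Txndc5, which overlaps Bmp6, had log2 differences between -0.23 and 0 in these comparisons.

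Of the receptor genes, Tgfbr2 rose in all 4 comparisons and Tgfbr1 in 3. Tgfbr2 measured 36.1, 37.3, 40.1, 37.1, 30.2 and 46.1 CPM in HF labelled-knockout males and 92.8, 90, 96.7, 82.6, 84.4 and 93 CPM in HFCF labelled-knockout males. This was the smallest p of the 10 genes in any comparison (log2 difference 1.25, SE 0.08, adjusted p = 2.22e-07). In control males the step was smaller, from 75.3 ± 11 to 92.7 ± 6.01 CPM (n = 6 each), still without overlap (0.31, SE 0.09, adjusted p = 0.0255). Leaving out HFCF control replicate 2 or 4 ended that call (highest adjusted p 0.0624). In control females Tgfbr2 measured 61.6, 17.2, 27.6 and 18.7 CPM on HF and 80.2, 87.3, 68.5 and 68.4 CPM on HFCF. HF replicate 1 was again far above the rest of its group, and the groups still did not overlap (1.30, SE 0.36, adjusted p = 0.0263). The call held in 2 of 8 fits with a library left out, those without HF replicate 1 (1.87, adjusted p = 8.37e-05) and without HFCF replicate 3. In labelled-knockout females the difference was 1.33 (SE 0.24, adjusted p = 0.00717), from 23 ± 7.22 to 58 ± 11.9 CPM, and held in all 8 such fits.

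Tgfbr1 rose in control males (59.7 ± 8.71 against 44.3 ± 3.51 CPM, log2 difference 0.44, SE 0.09, adjusted p = 0.00487), in labelled-knockout males (59 ± 4.4 against 40.6 ± 3.98 CPM, 0.55, SE 0.07, adjusted p = 3.49e-05) and in control females (71.6 ± 14.7 against 36.4 ± 6.72 CPM, 0.99, SE 0.17, adjusted p = 0.00597). All of these calls held with each library left out. In labelled-knockout females it measured 30.5, 60.6, 54.2 and 65.7 CPM on HFCF and 32.5 to 37.4 CPM on HF. The low HFCF value was replicate 1, the library with the highest hepatocyte sum. The difference there was 0.58 (adjusted p = 0.0846, called by the Wald test and with all female groups in 1 fit), and 0.77 without that library (adjusted p = 0.000673).

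Smad9 and Id1 rose on HFCF in controls of both sexes. Smad9 encodes a receptor-activated SMAD of the BMP branch. It measured 1.78 to 6.49 CPM (median 4.65) in HF control males and 6.42 to 17.8 CPM (median 9.5) in HFCF control males. The lowest HFCF library lay just under the highest HF library, and the log2 difference was 1.26 (SE 0.28, adjusted p = 0.00575). With all male groups in 1 fit the adjusted p was 0.0921. In control females it went from 1.56, 0.374, 0.438 and 0.558 CPM to 4.39, 5.19, 2.7 and 2.56 CPM without overlap (2.33, SE 0.46, adjusted p = 0.00846). In labelled-knockout males it was not called (log2 difference -0.19, SE 0.74, adjusted p = 0.854). There it was -1.16 (adjusted p = 0.0744) without HF replicates 3, 4 and 5, and 0.99 (adjusted p = 0.236) without HF replicate 6. It also did not pass the main test in labelled-knockout females (1.62, SE 0.51, adjusted p = 0.0621), where the Wald test and the fit of all female groups called it.

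Id1, a helix-loop-helix inhibitor gene induced by BMP signals, rose from 3.66 to 9.14 CPM (median 5.65) to 8.35 to 13.5 CPM (median 12.6) in control males. A single HFCF library lay within the HF range, and the log2 difference was 0.97 (SE 0.19, adjusted p = 0.00346). In control females it was 0.82 (SE 0.26, adjusted p = 0.0396), a call that held in 2 of 8 fits with a library left out and not with all female groups in 1 fit. In labelled knockouts the difference was 0.35 (adjusted p = 0.345) in males and 0.32 (adjusted p = 0.406) in females. Smad7, the inhibitory SMAD, was called in control males alone (22.6 ± 3.77 against 15.5 ± 1.6 CPM, 0.55, SE 0.11, adjusted p = 0.00346). Its differences in the other 3 comparisons were 0.27, 0.36 and 0.38, with adjusted p-values of 0.374, 0.103 and 0.082. A call in controls and none in labelled knockouts does not show a difference between them, and the interactions that test it follow the knockout comparisons.

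**Figure D2:**
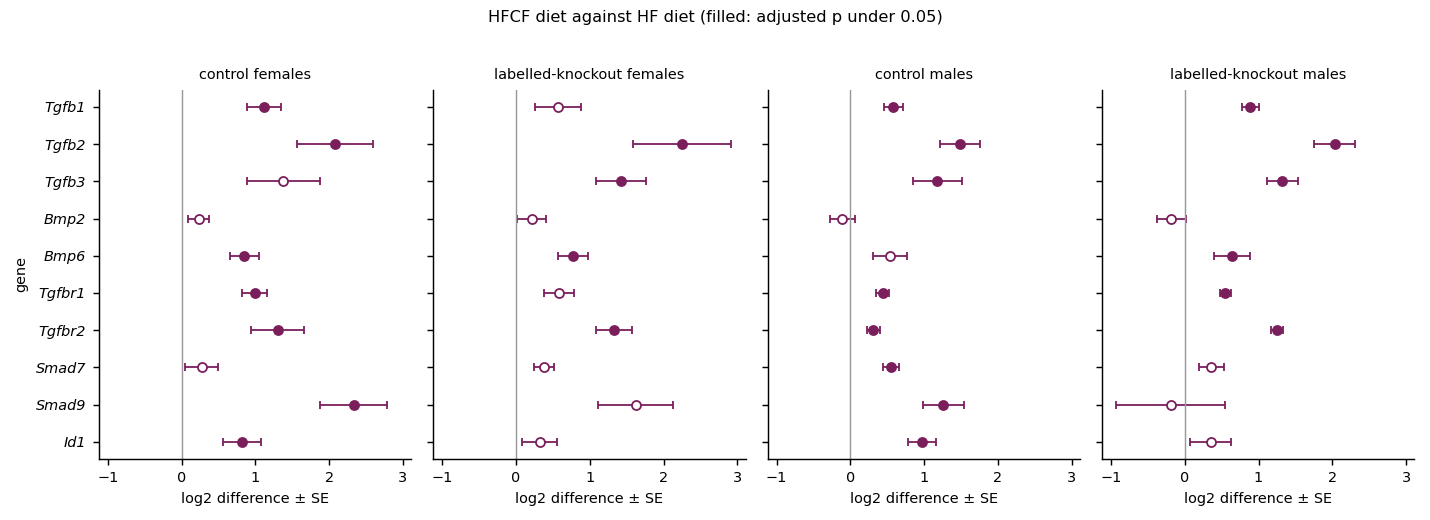
Log2 difference of the HFCF against the HF diet (horizontal axis, ± SE) for the 10 genes (vertical axis) in control and labelled-knockout females and males, with filled points where the adjusted p was under 0.05. Tgfb2 stands farthest right of the called genes in labelled-knockout females at 2.25, and Bmp2 lies between -0.18 and 0.23 in all 4 panels.

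Of 79 further pathway genes, 26 rose and 6 fell in control males (71 tested), 26 and 6 in control females (75 tested), 20 and 7 in labelled-knockout males (70 tested) and 18 and 4 in labelled-knockout females (74 tested). Of all genes tested, 22.3%, 30.8%, 41.7% and 14.5% were called in these comparisons, in the same order (13%, 16.9%, 21.6% and 8.44% higher). In labelled-knockout males the called share of the pathway genes was below that of all genes. Among 12 genes of ligand activation, 9 rose and 2 fell in control males, led by the TGF-beta-activating integrin genes Itgb6 (log2 difference 2.57) and Itgb8 (1.71) and the latent TGF-beta binding protein gene Ltbp2 (1.67). Ltbp2 rose by 2.06 in control females and 1.82 in labelled-knockout males, and Itgb8 by 2.01 in control females and 2.24 in labelled-knockout females. Hamp rose in control males (1.99). In control females it was 36.9, 276, 157 and 186 CPM on HF and 107, 101, 144 and 48.5 CPM on HFCF. In labelled-knockout males Hamp was 0.23 to 416 CPM on HF and 30.4 to 97.1 CPM on HFCF. In labelled-knockout females it was 17.9 to 406 CPM on HF and 34.5 to 275 CPM on HFCF. Without HF labelled-knockout male replicates 3, 4 and 5, 3 of 6 BMP target genes were called lower in labelled-knockout males and 0 higher. Among 10 TGF-beta target genes, 8 rose and 1 fell in each male comparison. In control females 6 rose and 1 fell, and in labelled-knockout females 7 rose and 1 fell. Timp1, a protease inhibitor gene of fibrosis, rose by 2.66 in labelled-knockout males, 2.93 in control females and 3.90 in labelled-knockout females. Ctgf, a matricellular TGF-beta target gene, rose by 2.04 in control females. The collagen genes Col1a1 and Col1a2 rose by 2.18 and 1.79 in labelled-knockout males and by 2.95 and 2.43 in labelled-knockout females. Klf10, a TGF-beta-inducible repressor gene, was the member of that list that fell, by 0.82 in control males, 0.63 in labelled-knockout males, 1.12 in control females and 0.87 in labelled-knockout females. Bmp1, a procollagen protease gene, fell in control males (-0.29), control females (-0.65) and labelled-knockout females (-0.48). Tmprss6, a protease gene that restrains hepcidin, fell in control males (-0.25) and labelled-knockout males (-0.40), and Bmp10, a ligand gene, in control males (-0.68). The activin subunit gene Inhbc fell in control females (-0.65) and labelled-knockout males (-0.75), Inhbe in control females (-0.55) and the BMP antagonist gene Chrd in labelled-knockout males (-0.53). In labelled-knockout females Acvr2b (-1.24), an activin receptor gene, fell.

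Cell-type markers moved in the same comparisons. In control males 7 of 7 macrophage markers (summed level 81.6 to 122 CPM on HF and 115 to 359 CPM on HFCF) and 5 of 5 cholangiocyte markers (107 to 217 and 158 to 565 CPM) rose. There 3 of 7 stellate cell (429 to 598 and 431 to 680 CPM) and 2 of 8 endothelial markers (320 to 448 and 307 to 475 CPM) also rose, and 3 of 6 hepatocyte markers fell (61200 to 85500 and 39300 to 61300 CPM). In control females 7 of 7 macrophage, 5 of 5 cholangiocyte, 7 of 8 endothelial and 2 of 7 stellate markers rose and 5 of 6 hepatocyte markers fell. Labelled knockouts had 7 of 7 macrophage markers higher in males and 5 of 7 in females, and 5 of 5 cholangiocyte markers in both sexes, and 5 of 6 hepatocyte and 5 of 5 red blood cell markers lower in males. The red blood cell sum there was 164 to 817 CPM on HF and 178 to 250 CPM on HFCF, and only HF replicates 3, 4 and 5 exceeded the HFCF range. In labelled knockouts, stellate markers were higher for 4 of 7 in males and 5 of 7 in females, and endothelial markers for 3 of 8 in both. Fewer cells of a type and less RNA per cell cannot be told apart in bulk liver, and the part of these markers in the differences of the 10 genes was not tested.

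The labelled knockout was compared with controls within each diet and sex to ask what hepatocyte-directed Cre does to the pathway. In HF males, 3 of the 10 genes fell and none rose, where 18.5% of 14041 genes were called (9.88% lower). The median of the 10 was -0.26, beside 0.00 over all genes. Tgfbr2 changed most by p. It measured 83.7, 54.3, 82.7, 79.5, 72.8 and 78.7 CPM in controls and 36.1, 37.3, 40.1, 37.1, 30.2 and 46.1 CPM in labelled knockouts. Every labelled-knockout library lay below every control, including control replicate 2, the lowest at 54.3 CPM. The log2 difference was -1.0 (SE 0.11, adjusted p = 2.13e-05) and was called in all 12 fits with a library left out. Groups failed to overlap in this direction for 4.24% of all genes.

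Tgfb2 measured 1.55 to 2.23 CPM (median 1.79) in HF control males and 0.473 to 1.55 CPM (median 0.919) in labelled knockouts. The groups met at 1.55 CPM without overlap, with a log2 difference of -0.94 (SE 0.24, adjusted p = 0.0129), called in all 12 fits with a library left out. Tgfb1 measured 18 to 23.4 CPM (median 18.8) in controls and 11.7 to 18.5 CPM (median 15.3) in labelled knockouts. The groups overlapped slightly (-0.40, SE 0.12, adjusted p = 0.0279). The call was lost without control replicate 3 or 6 or labelled-knockout replicate 1 or 2 (highest adjusted p 0.0688). Tgfbr1, the partner receptor gene, had a log2 difference of -0.13 (SE 0.07, adjusted p = 0.238), from 44.3 ± 3.51 to 40.6 ± 3.98 CPM. Tgfb3 (-0.24), Bmp2 (-0.23), Bmp6 (-0.26), Smad7 (-0.11) and Id1 (-0.27) had adjusted p-values of 0.458 to 0.688.

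Smad9 in HF males depended on single libraries. The labelled knockouts stood at 3.76, 1.76, 0.312, 0.252, 0 and 10.6 CPM, against 5.66, 1.78, 4.45, 4.49, 4.81 and 6.49 CPM in controls. Replicate 6 was higher than all controls. Replicates 2, 3, 4 and 5 lay below all controls, and replicate 1 below all but control replicate 2. The log2 difference was -0.75 (SE 0.70, adjusted p = 0.501). Without replicate 6 it was -1.94 (adjusted p = 0.0352). The lowest Smad9 values, 0.312, 0.252 and 0 CPM, were those of replicates 3, 4 and 5, which were high in red blood cell markers and had 2.62, 34.5 and 0.23 CPM of Hamp against 219 to 416 CPM in replicates 1, 2 and 6. HF control males had 23.9 to 93.4 CPM of Hamp. Replicates 3 and 5 thus lay below the controls, replicate 4 within their range and replicates 1, 2 and 6 above it. Without replicates 3, 4 and 5 the log2 difference of Smad9 was 0.22 (adjusted p = 0.797). The same 3 genes, Tgfb1 (-0.65, adjusted p = 0.00421), Tgfb2 (-1.3, adjusted p = 0.0108) and Tgfbr2 (-0.92, adjusted p = 0.001), were called without them, and no other of the 10.

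Of the 79 further pathway genes, 4 rose and 13 fell in HF males (69 tested), where 18.5% of all genes were called (9.88% lower). The TGF-beta target list had 8 of 10 genes lower and none higher, with a median of -0.46. Without labelled-knockout replicates 3, 4 and 5, 6 of 10 were lower, and 3 of the 6 BMP target genes, of which none was called with them, were higher. Timp1 fell from 2.36 ± 0.571 to 0.534 ± 0.334 CPM (log2 difference -2.13, SE 0.34, adjusted p = 0.000525) and Col1a1 from 83.4 ± 23.6 to 35.8 ± 10 CPM (-1.23, SE 0.21, adjusted p = 0.000725). Thbs1, encoding a TGF-beta-activating matrix protein, fell by 1.12 (adjusted p = 0.000158). The genes that rose were Inhbc (0.50), Chrd (0.35), Bmp1 (0.27) and the type I receptor gene Acvr1 (0.27). In the same comparison 6 of 6 hepatocyte markers rose (61200 to 85500 CPM in controls and 88800 to 104000 CPM in labelled knockouts). There 4 of 7 macrophage markers (81.6 to 122 and 62.4 to 86.9 CPM), 3 of 7 stellate (429 to 598 and 344 to 501 CPM) and 2 of 8 endothelial markers (320 to 448 and 234 to 402 CPM) fell. The separate Kupffer cell list went the other way by its sum, at 143 to 313 CPM in controls and 246 to 407 CPM in labelled knockouts. Of the red blood cell markers 3 of 5 rose (166 to 247 and 164 to 817 CPM), and only labelled-knockout replicates 3, 4 and 5 exceeded the control range. The part of all these markers in the lower Tgfbr2, Tgfb1 and Tgfb2 was not tested.

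In HFCF males the labelled knockout had other genes lower. Here 2 of the 10 fell, Smad9 and Id1, and none rose, where 2.21% of 14685 genes were called (1.27% lower). Smad9 measured 14.4, 6.42, 8.35, 9.01, 17.8 and 10 CPM in controls and 3.08, 2.91, 3.89, 1.6, 1.38 and 1.39 CPM in labelled knockouts. All labelled-knockout libraries lay below all controls, which held for 1.5% of all genes. The log2 difference was -2.18 (SE 0.30, adjusted p = 0.00104). Id1 measured 8.35 to 13.5 CPM (median 12.6) in controls and 4.94 to 8.48 CPM (median 6.12) in labelled knockouts, where the highest labelled knockout lay above the lowest control. Its log2 difference was -0.88 (SE 0.15, adjusted p = 0.00517). Both calls held in all 12 fits with a library left out and in all 5 other settings.

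Tgfbr2 was nearly level in HFCF males, at 92.7 ± 6.01 CPM in controls and 89.9 ± 5.42 CPM in labelled knockouts (log2 difference -0.04, SE 0.06, adjusted p = 0.816). Smad7 stood at 22.6 ± 3.77 and 18.4 ± 2.47 CPM (-0.29, SE 0.12, adjusted p = 0.256) and Bmp2 at 17 ± 3.73 and 13.9 ± 2.19 CPM (-0.28, SE 0.14, adjusted p = 0.395). Tgfb1 (-0.07), Tgfb2 (-0.37), Tgfb3 (-0.07), Bmp6 (-0.15) and Tgfbr1 (-0.01) had adjusted p-values of 0.616 to 0.973.

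Among the 6 listed BMP target genes in HFCF males, Hamp fell from 206 ± 102 to 56.7 ± 23.6 CPM (log2 difference -1.85, SE 0.40, adjusted p = 0.0274), and its paralog Hamp2 rose from 9.73 ± 2.32 to 18.5 ± 5.14 CPM (0.93, SE 0.19, adjusted p = 0.0168). Hamp and Hamp2 are near-identical neighbours, so the split of their reads is uncertain. Id2 (-0.47), Id3 (-0.53), Id4 (-0.64) and Atoh8 (-0.68) had adjusted p-values of 0.07, 0.081, 0.234 and 0.0776. Hamp and Hamp2 were the only 2 of 73 tested pathway genes called, beside 2.21% of all genes, and that count was 0 with all male groups in 1 fit. It was 6 without control replicate 1, 4 without control replicate 2 or labelled-knockout replicate 3, and 0 without control replicate 6. It was 1 without control replicate 4 or 5 or labelled-knockout replicate 1, 4, 5 or 6. All genes called ran from 185 to 1052 over the fits with a library left out. Of the marker lists, 1 of 6 Kupffer cell markers was called, higher, and none of the other lists had a called gene. The hepatocyte sum was 39300 to 61300 CPM in controls and 54400 to 64000 CPM in labelled knockouts.

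**Figure D3:**
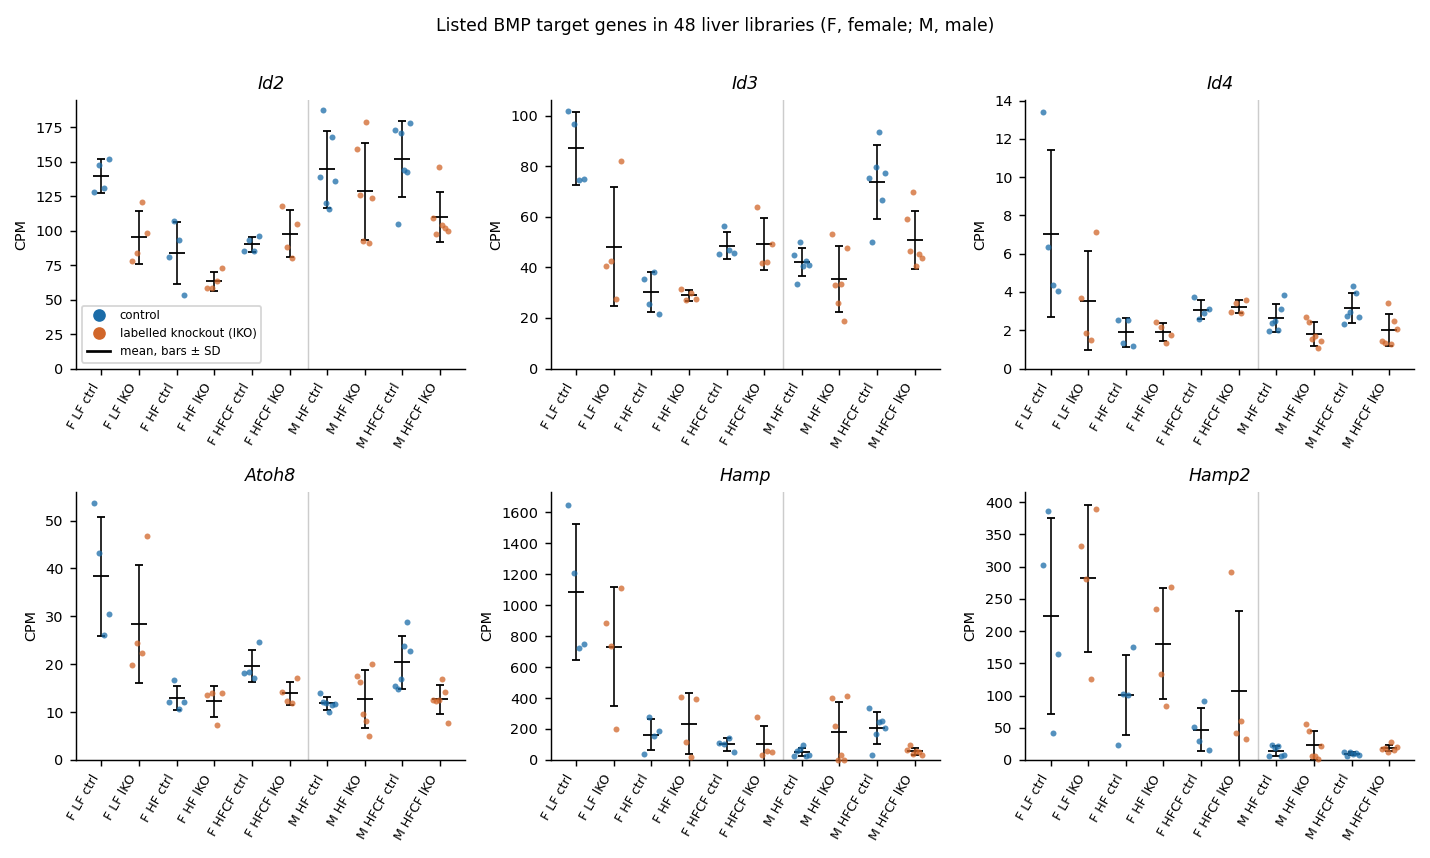
CPM of 6 listed BMP target genes (vertical axes, linear from 0) in each library by group (F, female; M, male; ctrl, control; lKO, labelled knockout), with group mean and SD bars. Id3, Atoh8 and Hamp have their highest means in LF control females (87, 38.4 and 1080 CPM), and in HFCF males Hamp is 206 CPM in controls and 56.7 CPM in labelled knockouts.

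In females, none of the 10 genes was called in labelled knockouts on any diet. By edgeR's test no gene at all was called on LF (0% of 14285) or HF (0% of 14128), and 0.0534% of 14980 genes on HFCF. On LF, HF and HFCF, 355, 1135 and 1340 genes had an unadjusted p under 0.05, and DESeq2's Wald test called 7, 60 and 80 genes. At an unadjusted p under 0.05 there were 2 of 10 on LF (Smad7 and Smad9), 0 of 9 on HF and 2 of 10 on HFCF (Tgfbr2 and Smad9). DESeq2's Wald test called 1 of the 10, Smad9 on HFCF. On HFCF, Smad9 measured 4.39, 5.19, 2.7 and 2.56 CPM in controls and 1.96, 1.04, 1.93 and 1.38 CPM in labelled knockouts. The groups did not overlap, as for 3.46% of all genes in this direction, and the log2 difference was -1.21 (SE 0.30, adjusted p = 0.403, and 0.0496 by the Wald test). On LF, Smad9 measured 17, 13.5, 8.06 and 12.5 CPM in controls and 2.42, 7.48, 3.98 and 11.6 CPM in labelled knockouts, with overlap (-0.99, SE 0.41, adjusted p = 1). On HF it was too low to be tested, at 0.733 ± 0.557 and 0.525 ± 0.355 CPM.

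Tgfbr2 on HFCF stood at 80.2, 87.3, 68.5 and 68.4 CPM in control females and 41.1, 67.8, 58.2 and 64.7 CPM in labelled knockouts. All labelled knockouts lay below all controls, narrowly for replicate 2 (-0.37, SE 0.15, adjusted p = 0.548). On LF it was 25.4 ± 2.62 and 24.9 ± 6.9 CPM, and on HF 31.3 ± 20.7 and 23 ± 7.22 CPM. The HF log2 difference was -0.42 (adjusted p = 0.818), and 0.15 (adjusted p = 0.872) without control replicate 1. Smad7 on LF measured 32.4, 41.2, 24.7 and 24.3 CPM in controls and 18.1, 21.7, 14 and 27.3 CPM in labelled knockouts (-0.58, SE 0.23, adjusted p = 1), with 1 labelled knockout above 2 controls. Id1 on LF was 21.6 ± 9.36 and 11.9 ± 7.61 CPM (-0.83, SE 0.43, adjusted p = 1). Labelled-knockout replicate 4 had the highest Smad7, Smad9 and Id1 of its LF group. None of the further pathway genes was called in these 3 comparisons, where the Wald test called 1, on HF, and none of the cell-type markers was called.

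**Figure D4:**
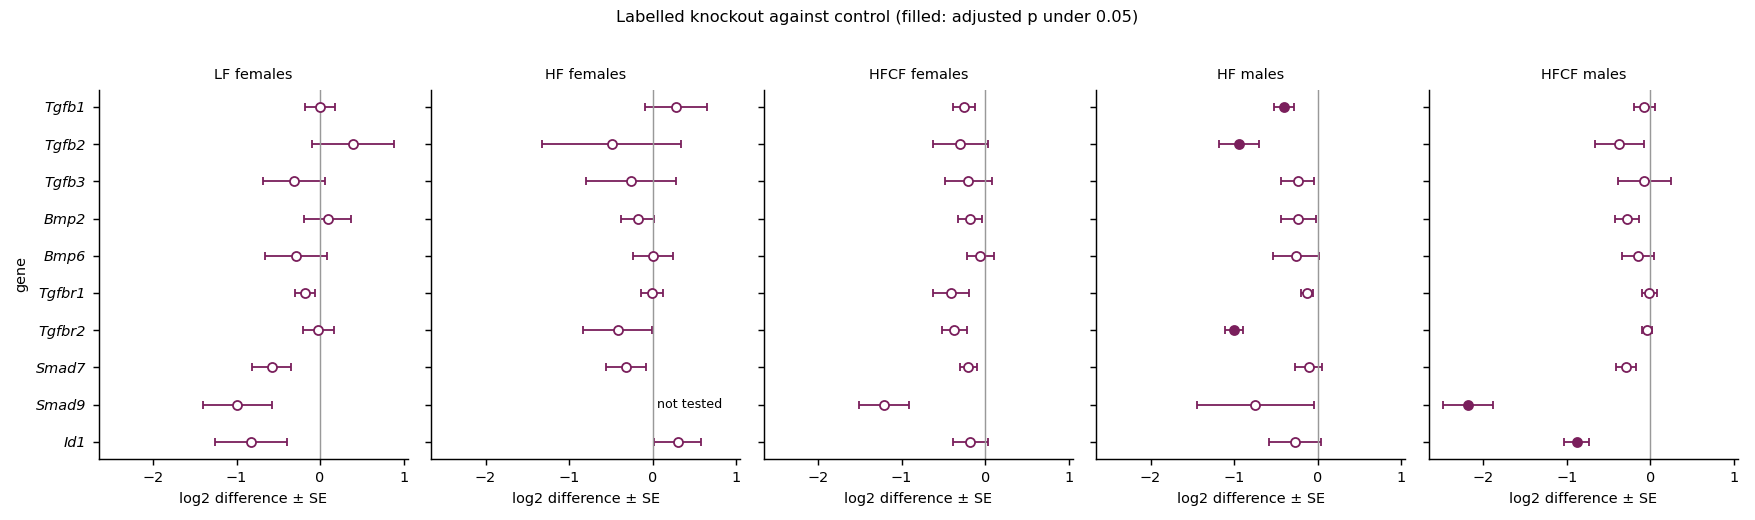
Log2 difference of labelled knockout against control (horizontal axis, ± SE) for the 10 genes (vertical axis) in 5 comparisons, with filled points where the adjusted p was under 0.05. Tgfb1, Tgfb2 and Tgfbr2 are filled in HF males (-0.40, -0.94 and -1.0) and Smad9 and Id1 in HFCF males (-2.18 and -0.88).

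Whether the labelled-knockout difference departs between diets or sexes was tested as interactions. In males, the effect on the HFCF diet minus that on the HF diet was called for 1 of the 10 genes, Tgfbr2, where 1.56% of 15096 genes were called. It amounted to 0.94 log2 units (SE 0.13, adjusted p = 0.000236), and 0.987% of all genes were called in this direction. It was called in all 24 fits with a library left out, between 0.89 and 1.03, and in all 5 other settings. For Smad9 the interaction was -1.45 (SE 0.82, adjusted p = 0.379) and for Id1 -0.62 (SE 0.36, adjusted p = 0.4), so their lower levels on HFCF were not shown to differ from the effect on HF. Without HF labelled-knockout replicates 3, 4 and 5, Smad9 was called as well (-2.42, adjusted p = 0.0422), Id1 was -1.11 (adjusted p = 0.0956) and Tgfbr2 0.86 (adjusted p = 0.00329). Those libraries held the lowest Smad9 values of their group. Without replicate 6, the highest of that group at 10.6 CPM, the Smad9 interaction was -0.25 (adjusted p = 0.896). The Smad9 interaction thus depended on which libraries were left out. Of the pathway list, Inhbc (-0.64), Acvr1 (-0.41) and Chrd (-0.58) had more negative effects on HFCF. Without HF labelled-knockout replicates 3, 4 and 5 these genes lost their calls, with 0 called in the ligand, receptor and antagonist lists. There 2 of the 6 BMP target genes were called, both lower, beside 126 genes in all. None of the 10 TGF-beta target genes had a called interaction, and the largest was that of Timp1 (1.57, SE 0.55, adjusted p = 0.129).

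**Figure D5:**
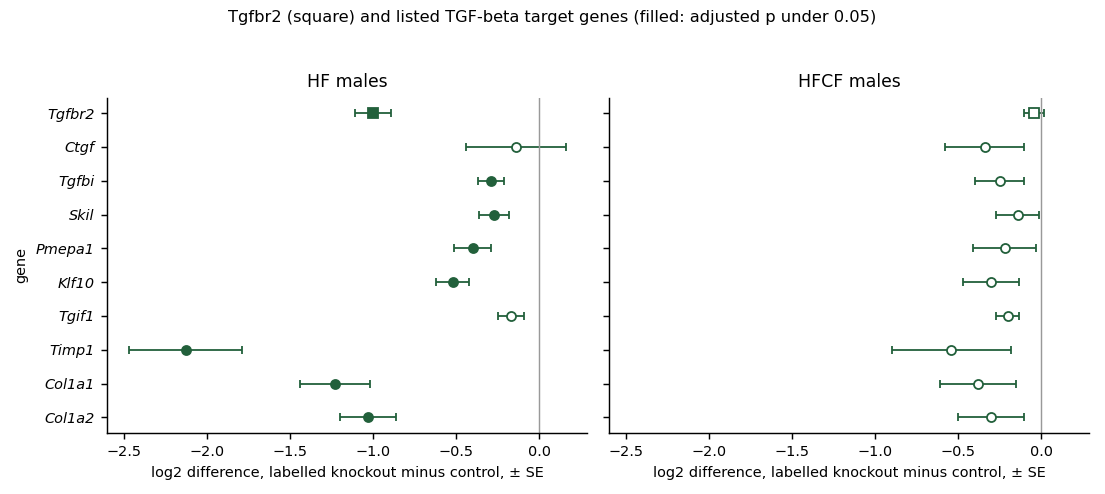
Log2 difference of labelled knockout minus control (horizontal axis, ± SE) for Tgfbr2 (square) and 9 of the listed TGF-beta target genes (circles) in HF and HFCF males, with filled points where the adjusted p was under 0.05. Tgfbr2 and 7 of these 9 target genes are filled on HF, and none is filled on HFCF, where Tgfbr2 is at -0.04.

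In females the same diet interaction was called for none of the 10 genes, nor for any of 15445 genes (0%) by edgeR's test, with 0 of the 10 and 667 of all genes at an unadjusted p under 0.05. Tgfbr2 had an interaction of 0.05 (SE 0.46, adjusted p = 0.993) there, and -0.52 (adjusted p = 0.65) without HF control replicate 1. The labelled-knockout effect did not pass as different between the sexes for any of the 10, on HF (0% of 15024 genes) or on HFCF (0% of 15673). At an unadjusted p under 0.05 there were 0 of the 10 beside 1590 of all genes on HF, and 2 of the 10 beside 1515 on HFCF. DESeq2's Wald test called none in these 3 interactions, where it gave an adjusted p for 10, 10 and, on HFCF between the sexes, 5 of the 10 genes. On HF, Tgfbr2 had a difference of -0.57 between males and females (SE 0.38, adjusted p = 0.59), and without HF control female replicate 1 it was -1.14 (adjusted p = 0.0333). On HFCF, Id1 (-0.69, SE 0.26, adjusted p = 0.432) and Tgfbr2 (0.33, SE 0.14, adjusted p = 0.469) were the genes under that p. The HFCF against HF effect in controls was not called as different between the sexes for any of the 10, with 0.00646% of 15491 genes called. Without HF control female replicate 1, 3 were called, all with smaller rises in males: Tgfb2 (-1.59, adjusted p = 0.0365), Tgfbr1 (-0.68, adjusted p = 0.0231) and Tgfbr2 (-1.55, adjusted p = 9.65e-05). With that library their values were -0.60, -0.54 and -0.98 (adjusted p = 0.582, 0.22 and 0.214). Over the fits of this interaction with a library left out, all genes called ran from 0 to 1699.

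HF-fed and LF-fed livers were compared in females alone, since males had no LF arm. In controls 2 of the 10 genes fell and none rose, where 0.696% of 14216 genes were called (0.253% lower). Smad9 measured 17, 13.5, 8.06 and 12.5 CPM on LF and 1.56, 0.374, 0.438 and 0.558 CPM on HF. The lowest LF library, at 8.06 CPM, lay above the highest HF library, at 1.56 CPM, and the log2 difference of -4.10 (SE 0.43, adjusted p = 0.00829) was the largest of the 10 genes in any comparison. The call held in all 8 fits with a library left out. Id1 measured 28.5, 30.8, 13.5 and 13.6 CPM on LF and 6.3, 5.61, 5.01 and 2.85 CPM on HF, again apart (-2.13, SE 0.34, adjusted p = 0.0322). The call for Id1 held in 3 of 8 such fits, those without LF control replicate 1 or 3 or HF control replicate 1 (highest adjusted p 0.128).

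Bmp6 and Smad7 were also lower in every HF control than in every LF control, without passing the main test. Bmp6 measured 9.33, 8.45, 8.61 and 9.58 CPM on LF and 6.07, 3.24, 4.51 and 3.66 CPM on HF (-1.04, SE 0.20, adjusted p = 0.0529). It was called without the low-count filter, and without HF control replicate 1 (-1.25, adjusted p = 0.018). Smad7 measured 32.4, 41.2, 24.7 and 24.3 CPM on LF and 21.3, 21.7, 14.8 and 9.67 CPM on HF (-0.87, SE 0.26, adjusted p = 0.15), and was called with all female groups in 1 fit. Groups failed to overlap in this direction for 4.14% of all genes, and for Smad9, Id1, Bmp6 and Smad7 among the 10. DESeq2's Wald test called these 4.

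Bmp2 had a log2 difference of -0.55 (SE 0.21, adjusted p = 0.251), from 21.8 ± 6.56 to 14.9 ± 2.3 CPM. The TGF-beta ligand and receptor genes lay between -0.14 (Tgfb3) and 0.30 (Tgfbr2), with adjusted p-values of 0.717 to 0.932. Without HF control replicate 1 these values were all below 0, from -0.24 for Tgfb1 and Tgfbr1 and -0.28 for Tgfbr2 to -0.79 for Tgfb3 and -0.85 for Tgfb2, with adjusted p-values of 0.292 to 0.581. In labelled knockouts none of the 10 was called, where 0.155% of 14214 genes were called. By unadjusted p under 0.05 there were 4 of 10, beside 1902 of all genes, and the Wald test called 1 of 9 with an adjusted p, beside 499 genes in all. Smad9 measured 2.42, 7.48, 3.98 and 11.6 CPM on LF and 0.698, 0.397, 0.0961 and 0.909 CPM on HF, all HF libraries below all LF libraries, as for 4% of all genes (-3.64, SE 0.62, adjusted p = 0.0552). It was called without LF labelled-knockout replicate 1, without the low-count filter and with all female groups in 1 fit (adjusted p from 1.31e-07 to 0.164 over the alternatives). The other 3 under that p were Bmp2 (-0.82, adjusted p = 0.232), Smad7 (-0.61, adjusted p = 0.22) and Id1 (-1.0, adjusted p = 0.318).

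Among the 6 listed BMP target genes in controls, the median log2 difference of HF against LF was -1.56, beside 0.00 over all genes. Id3 fell from 87 ± 14.3 to 30.2 ± 7.92 CPM (-1.53, SE 0.19, adjusted p = 0.0114) and Atoh8, a transcription factor gene induced by BMP, from 38.4 ± 12.4 to 12.9 ± 2.57 CPM (-1.58, SE 0.24, adjusted p = 0.0235). These were the 2 called of 69 pathway genes tested, beside 0.696% of all genes, and none rose. Hamp stood at 1080 ± 440 CPM on LF and 164 ± 98.9 CPM on HF (-2.74, SE 0.52, adjusted p = 0.0529). Of the 10 TGF-beta target genes, none of the 9 tested was called, and their median was 0.03. No cell-type marker was called in this comparison. The hepatocyte sum was 91200 to 118000 CPM on LF and 91700 to 109000 CPM on HF, and the endothelial sum was 280 to 436 and 249 to 355 CPM. The HF controls are the same libraries that served as reference for the HFCF diet, so the falls of Smad9 and Id1 on HF and their rises on HFCF are not independent. Side by side, Smad9 had group means of 12.8, 0.733 and 3.71 CPM on LF, HF and HFCF in control females, Id1 21.6, 4.94 and 8.65 CPM, Bmp6 8.99, 4.37 and 7.79 CPM and Smad7 30.7, 16.9 and 20.1 CPM.

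Ordered by group mean, neighbouring groups overlapped in nearly all cases, so single ranks are not separated by their spread. The exception was Tgfb1, where the fourth group, HFCF labelled-knockout females (24.5 to 33.9 CPM), did not overlap the next, HF control males (18 to 23.4 CPM). Tgfbr2 was ordered by sex as well as diet. It stood at 75.3 ± 11 CPM in HF control males and 31.3 ± 20.7 CPM in HF control females, of which replicate 1 reached 61.6 CPM. Smad9 stood at 4.61 ± 1.6 CPM in HF control males, all above the HF control females, which reached 1.56 CPM. The direct difference between the sexes was not tested.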

How the data were processed

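Whole-liver RNA-seq tables of 11 pairwise comparisons, each deposited by the authors, were joined by gene. Per the submitters' processing notes, STAR 2.6.1, HTSeq 0.6.1, DESeq2 and GRCm38 were used. Per the file headers, the deposited tables hold raw read counts, normalized signal (counts divided by size factors), FPKM, log2 fold changes and p-values. Only the deposited counts were tested here. Counts repeated between tables were identical (0 of 1341082 differed), and the deposited normalized signal was used only to check them. The authors' FPKM, log2 fold changes and p-values entered no test. Depth was 15338239 to 22072884 reads on genes per library.

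Genes were kept with filterByExpr and scaled by TMM in edgeR 4.0.16 (R 4.3.3), fitted per pair of groups (interactions on 4 groups) with the quasi-likelihood F test, and adjusted by Benjamini-Hochberg over all genes tested. The procedure was also run on simulated counts with the same dispersion for every gene and no outlying library. That setting does not cover low, variable genes such as Smad9 and Tgfb2. Alternatives were DESeq2 1.42.0 (size factors, Wald test), no count filter, all groups in 1 fit, a replicate block, each library left out in turn, and, added after seeing the data, 3 HF labelled-knockout males high in red blood cell markers left out together. Each replicate is a mouse. Gene lists, members and tests were chosen with earlier results of these data known. All 10 members are named. Of the 79 other pathway genes found of 82 listed (Mstn, Nog and Grem1 were not found), up to 4 called genes in each direction, ranked by absolute log2 difference and averaging 1 CPM or more, are named per comparison, plus members of the BMP and TGF-beta target lists added after their values were seen. Some genes that this rule names are not reported here.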

Additional observations from a re-analysis of the deposited data

Results flagged for a closer look

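Of 100 gene and group combinations examined, 9 held a library whose gap to the nearest other library exceeded Dixon's 95% critical value, where chance gives about 1 in 20. In HFCF control male replicate 1, Tgfb1 (17.8 CPM, next lowest 29.4), Tgfb3 (0.733 CPM, next 3.61) and Tgfbr1 (42.8 CPM, next 59.6) were low. That library also had the lowest macrophage and cholangiocyte marker sums of its group. In HF control female replicate 1, Tgfb2 (2.77 CPM, next highest 0.752) and Smad9 (1.56 CPM, next 0.558) were high, beside the highest stellate and cholangiocyte sums of its group. Tgfb3 was high in LF control female replicate 1 (3.23 CPM, next 1.56) and Tgfbr1 low in LF control female replicate 4 (32.4 CPM, next 40.5). Tgfbr2 was low in HF control male replicate 2 (54.3 CPM, next 72.8). Smad9 was high in HF labelled-knockout male replicate 6 (10.6 CPM, next 3.76). Tgfbr2 was also singled out because its difference between labelled-knockout and control males depended on diet, with an interaction of 0.94 on the log2 scale.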

How the results depend on the processing

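No called value changed sign under any alternative. Over the values of the 10 genes in 11 comparisons and 5 interactions, 2734 values under the other settings kept their side of the threshold, 63 lost a call and 30 gained one. With the DESeq2 Wald test the count of the 10 genes called went to 1 in HFCF labelled-knockout females against controls, 4 in HF against LF control females and 1 in HF against LF labelled-knockout females, and the pathway counts to 7 in HFCF males, 1 in HF females (both labelled knockout), 7 in HF against LF controls and 4 in HF against LF labelled knockouts. All genes called moved as well. They went from 8 to 80 in HFCF females, 324 to 670 in HFCF males and 0 to 60 in HF females (all labelled knockout). In HF against LF they went from 99 to 638 in controls and from 22 to 499 in labelled knockouts. With no filter on low counts, HF against LF gave 4 pathway genes in controls and 1 of the 10 and 2 pathway genes in labelled knockouts. All genes called were then 185 in controls and 124 in labelled knockouts. With all groups in 1 fit HF against LF gave 4, 1 and 1, and labelled knockout against control in HFCF males gave 0 pathway genes. All genes called were then 313 in controls and 114 in labelled knockouts for HF against LF, and 477 in HFCF males. With the replicate number as a block, HFCF against HF control females gave 0 of the 10 and 0 pathway genes (7 and 32 without it, 3 pairs), and HFCF labelled-knockout males 0 pathway genes. In those control females the block left 0 genes called in all, against 4526 without it. In HFCF labelled-knockout males it left 165 in all, against 324. Same-numbered libraries did not deviate together (lowest pair correlation -0.293, and in no comparison did all pairs exceed 0.1), so the numbers were not taken to pair mice. The cause of these changes was not tested.

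With 1 library left out, the counts of the 10 genes ran from 1 to 3 (HF against LF controls), 0 to 1 (HF against LF labelled knockouts), 4 to 8 (HFCF against HF control females), 1 to 6 (HFCF against HF labelled-knockout females), 0 to 1 (labelled-knockout effect by sex on HF) and 0 to 3 (diet effect by sex in controls). Pathway counts ran from 0 to 6 (labelled knockout, HFCF males), 1 to 3 and 0 to 2 (HF against LF), and 21 to 51 and 14 to 38 (HFCF against HF females). All genes called in these fits ran from 10 to 112 and 0 to 124 (HF against LF, controls and labelled knockouts). They ran from 2454 to 6530 and 866 to 4402 (HFCF against HF females) and 185 to 1052 (labelled knockout, HFCF males). For the labelled-knockout effect by sex on HF they ran from 0 to 287, and for the diet effect by sex in controls from 0 to 1699. Without HF labelled-knockout male replicates 3, 4 and 5, added after seeing the data, the male interaction was called for 2 of the 10 genes, Tgfbr2 and Smad9. Without replicate 6 of that group the Smad9 interaction was -0.25 (adjusted p = 0.896). Low counts limit Smad9 and Tgfb2 on HF, where single libraries had 0 reads.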

Other observations

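For each of the 10 genes, the genes with the most similar profile were ranked by Pearson r of log2 CPM over the 48 libraries among 12364 genes, as a description. Libraries of a group share diet and sex, so r after removing group means is given second. Smad9 was most like Id3 (r = 0.822, 0.656 within groups), Id1 (0.782, 0.695) and Smad7 (0.747, 0.605). Smad7 was most like Id1 (0.871, 0.776), Id3 (0.814, 0.65) and Atoh8 (0.813, 0.695), and Id1 most like Id3 (0.873, 0.862), Smad7 and Atoh8 (0.861, 0.722). Bmp2 was most like Aqp1 (0.853, 0.873), Dnase1l3 (0.844, 0.854) and Ehd3 (0.823, 0.834), and Bmp6 most like Sema6a (0.857, 0.816), Tinagl1 (0.812, 0.833) and Eng (0.806, 0.836). Tgfb2 was most like Plat (0.92, 0.813), Csrp1 (0.919, 0.811) and Col1a1 (0.918, 0.796), Tgfb1 most like Plekho2 (0.954, 0.892), and Tgfbr1 most like Itgav (0.931, 0.863). Tgfbr2 was most like Osbpl3 (0.947, 0.772), Slc6a8 (0.944, 0.696) and Kctd17 (0.94, 0.705).

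The authors' deposited table of each comparison gives an adjusted p under 0.05 for 8 of the 10 genes on HFCF against HF in control males and 8 in control females, 3 in HF labelled-knockout males and 2 in HFCF labelled-knockout males. In the authors' deposited table of HF against LF control females the number is 4. For HFCF against HF it is 6 in labelled-knockout males and 5 in labelled-knockout females. It is 1 for HF against LF in labelled-knockout females and 1 for HFCF labelled-knockout females against controls. In both of these the gene is Smad9, which edgeR's test did not call here. For labelled knockout against control in LF and HF females it is 0. The share of all genes under that value in the authors' tables was not counted, so these numbers do not single out the 10 genes.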
